A study of Caenorhabditis elegans with 2 samples.

Results

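Small nucleolar RNA (snoRNA) genes of Caenorhabditis elegans were examined for nearby chromatin bound by tagged RNT-1. Members were the candidate regions of the pooled ChIP-seq list whose summit, the base of highest signal, lay within 500 bp of the annotated start of a snoRNA gene. There were 277 such regions among 30000 candidates. They were divided by presence in the authors' optimal list, which is set by the irreproducible discovery rate (IDR), and by whether the snoRNA gene lay inside a protein-coding gene on the same strand, its host. The regions near hosted snoRNA genes numbered 148, and those near snoRNA genes outside a host numbered 129. The animals were hermaphrodite L1 larvae of strain OP462, genotype unc-119(tm4063) III; wgIs462, synchronized by bleaching and starvation and taken 6 h later. This stable transgenic line carries rnt-1 fused at its C-terminal end to GFP and FLAG, and an anti-GFP antibody was used on sonicated chromatin. The 2 biological replicates formed 1 group, both carried the transgene and the unc-119 allele, and no control library was analysed here. Whole animals were used, so every signal mixes all tissues of the larva, and 1 transgenic line stands for the factor.

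SnoRNAs are short nucleolar RNAs that guide chemical modification of ribosomal and small nuclear RNAs. Box C/D snoRNAs direct 2'-O-methylation with the methyltransferase fibrillarin, and box H/ACA snoRNAs direct pseudouridylation with dyskerin. Many sit in introns of other genes, from which they can be cut out of the spliced intron, while others are transcribed from a promoter of their own. Promoters of small nuclear RNA (snRNA) genes carry a proximal sequence element, and transfer RNA (tRNA) genes, read by RNA polymerase III, carry internal A and B boxes. RNT-1 is the RUNX factor of the worm, best known for promoting the divisions of seam cells in the epidermis.

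The windows printed first show the sequence that lay under several of the strongest peaks, because the summits gathered just before the snoRNA start. Each is the 150 bases before the annotated start, 5′ to 3′ on the snoRNA gene's strand, from the RefSeq WBcel235 genome. Capitals mark a pair of words, GNGNAACNC followed within 20 bases by TGTCNG, which resemble the proximal sequence element of snRNA genes and are called the snRNA-type pair here. Y53F4B.47 (II:15025894-15026043, minus strand) and Y67A10A.14 (IV:14327122-14327271, minus strand) lie outside a host. ZK994.7 (V:8500429-8500578, plus strand) lies in an intron of pxn-1, a peroxidasin gene, and C16D9.11 (V:8228970-8229119, minus strand) in an intron of rol-3, a receptor tyrosine kinase gene.
ZK994.7: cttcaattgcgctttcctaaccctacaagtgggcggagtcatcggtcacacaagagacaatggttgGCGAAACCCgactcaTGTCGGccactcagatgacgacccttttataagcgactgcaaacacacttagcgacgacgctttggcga
C16D9.11: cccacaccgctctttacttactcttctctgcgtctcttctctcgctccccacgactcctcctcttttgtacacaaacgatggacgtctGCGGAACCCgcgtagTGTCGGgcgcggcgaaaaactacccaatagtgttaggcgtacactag
Y53F4B.47: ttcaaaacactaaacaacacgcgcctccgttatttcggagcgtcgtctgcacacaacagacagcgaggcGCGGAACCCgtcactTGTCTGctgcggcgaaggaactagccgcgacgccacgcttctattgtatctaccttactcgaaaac
Y67A10A.14: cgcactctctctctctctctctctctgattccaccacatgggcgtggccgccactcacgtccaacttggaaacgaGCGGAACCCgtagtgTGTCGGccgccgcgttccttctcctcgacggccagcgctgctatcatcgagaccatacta
The summits lay 32 bp before the start in ZK994.7, 58 bp in C16D9.11, 79 bp in Y53F4B.47 and 70 bp in Y67A10A.14. The first word began 84, 62, 81 and 75 bases before the start in the same order of genes, and the second word 69, 47, 66 and 60 bases before it.

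A second set of windows carried TGGNNNANT followed 25 to 80 bases later by GTTCNA, words that resemble the A and B boxes of tRNA genes and are called the tRNA-type pair. C05D2.15 (III:5602180-5602329, minus strand) is in an intron of madf-11, and K11C4.6 (V:6888926-6889075, plus strand) is in an intron of unc-70, the beta-spectrin gene. Y75B12B.12 (V:15191094-15191243, minus strand) and T03F7.8 (V:11314108-11314257, plus strand) lie outside a host. They are shown because the words, capitalized here, stood upstream of the annotated snoRNA start and not within the snoRNA.
C05D2.15: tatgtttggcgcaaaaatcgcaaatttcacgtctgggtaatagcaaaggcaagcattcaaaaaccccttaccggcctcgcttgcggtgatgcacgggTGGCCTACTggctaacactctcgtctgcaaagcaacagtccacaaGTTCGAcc
K11C4.6: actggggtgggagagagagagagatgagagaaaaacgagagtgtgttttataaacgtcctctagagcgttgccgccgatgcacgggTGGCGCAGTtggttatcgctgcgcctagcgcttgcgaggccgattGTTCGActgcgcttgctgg
Y75B12B.12: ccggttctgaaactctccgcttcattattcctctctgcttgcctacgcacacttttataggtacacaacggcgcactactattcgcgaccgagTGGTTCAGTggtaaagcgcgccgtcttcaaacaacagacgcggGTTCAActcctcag
T03F7.8: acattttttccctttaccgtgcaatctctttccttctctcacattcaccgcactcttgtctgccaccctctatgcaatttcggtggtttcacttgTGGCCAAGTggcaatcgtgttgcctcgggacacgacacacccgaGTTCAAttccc
The pooled signals at these 4 windows were 489 for C05D2.15, 189 for K11C4.6, 442 for Y75B12B.12 and 382 for T03F7.8. Their summits lay 46, 99, 50 and 38 bp before the start in that order. A match to either pair is a description of letters and is not a mapped binding site.

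Of the 277 regions at snoRNA starts, 139 were in the IDR list, which is 50.2% (exact Clopper-Pearson 95% interval 44.1 to 56.2%), beside 18.5% of all 30000 candidates. The IDR list consists of the 5560 candidates with the highest pooled signal, so membership means a signal of at least 71.6. Intervals cover counting error only, read depth is unknown, and regions of 1 experiment are not replicates. The 139 peaks made up 2.5% of the IDR list. Near hosted snoRNA genes 53 of 148 regions were peaks (35.8%, 28.1 to 44.1%), and near snoRNA genes outside a host 86 of 129 were (66.7%, 57.8 to 74.7%). Among the second group, the share was 14 of 23 where the snoRNA lay only in a coding gene of the opposite strand and 72 of 106 where it lay in no coding gene.

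Counted by gene, 135 of the 346 annotated snoRNA genes had an IDR peak within 500 bp of the start (39.0%, 33.8 to 44.4%), beside 14.8% of 19973 protein-coding genes with a peak within the same distance of a transcript start. A peak was found at 52 of 183 hosted genes (28.4%) and at 83 of 163 genes outside a host (50.9%). Of the hosted genes 143 lay wholly within an intron. By chromosome, 33 of 74 snoRNA genes had a peak on I, 31 of 71 on II, 16 of 54 on III, 25 of 59 on IV, 24 of 55 on V and 6 of 33 on X. The share of genes was lowest on X (18.2%, 6.98 to 35.5%). Counted by region, 7 of the 13 candidates at snoRNA starts on X were peaks (53.8%, 25.1 to 80.8%), beside 20.7% of all candidates on X.

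Summits of the peaks stood in a narrow band upstream of the snoRNA start. Of the 139 peaks, 117 (84.2%) had the summit upstream, against 63 of 138 candidates below the threshold (45.7%). A summit 0 to 100 bp upstream, called a close peak here, was found for 88 of 139 peaks (63.3%, 54.7 to 71.3%) and for 24 of 138 candidates below the threshold (17.4%, 11.5 to 24.8%). This class was chosen after the positions were seen. Merging summits within 200 bp removed none of the 277 regions. A start with a close peak could therefore have no close candidate below the threshold, which partly fixes this contrast in position. Close peaks lay a median of 47.5 bp before the start, with quartiles of 36 and 58 bp. They were 29 of 53 peaks at hosted genes (54.7%, 40.4 to 68.4%) and 59 of 86 at genes outside a host (68.6%, 57.7 to 78.2%). The band was therefore present in both host classes, and the intervals of these shares of peaks overlapped. By gene, a close peak was found at 30 of 183 hosted genes (16.4%, 11.3 to 22.6%). Outside a host it was found at 59 of 163 genes (36.2%, 28.8 to 44.1%). The intervals by gene did not overlap, and the difference was not tested.

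**Figure D1:**
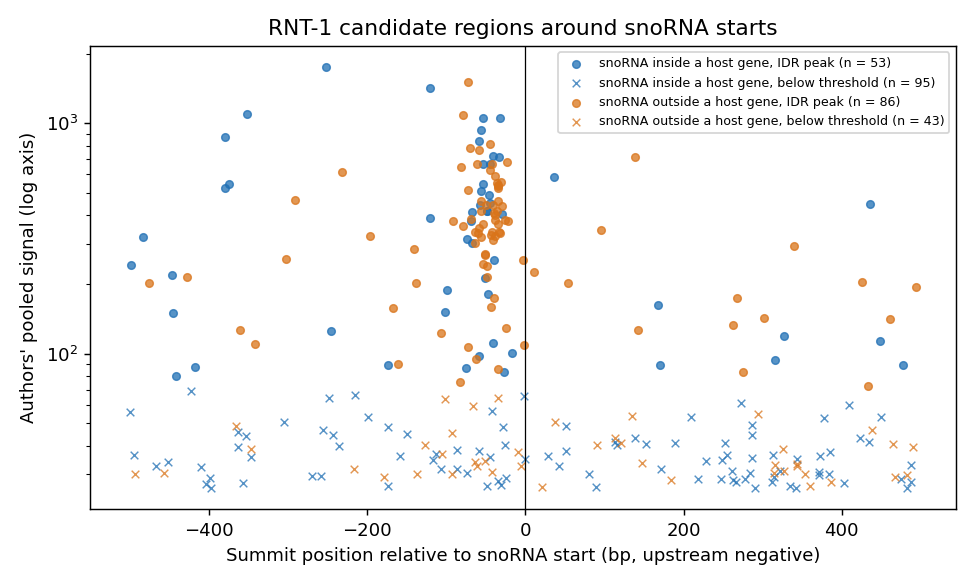
Each point is a candidate region within 500 bp of a snoRNA start, with summit position on the horizontal axis (bp, upstream negative) and the authors' pooled signal on a log axis. Circles are IDR peaks and crosses candidates below the threshold, blue for hosted snoRNA genes and orange for those outside a host. The circles crowd just upstream of the start, with a median position of 49 bp upstream, and the crosses are spread over the whole range.

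**Figure D2:**
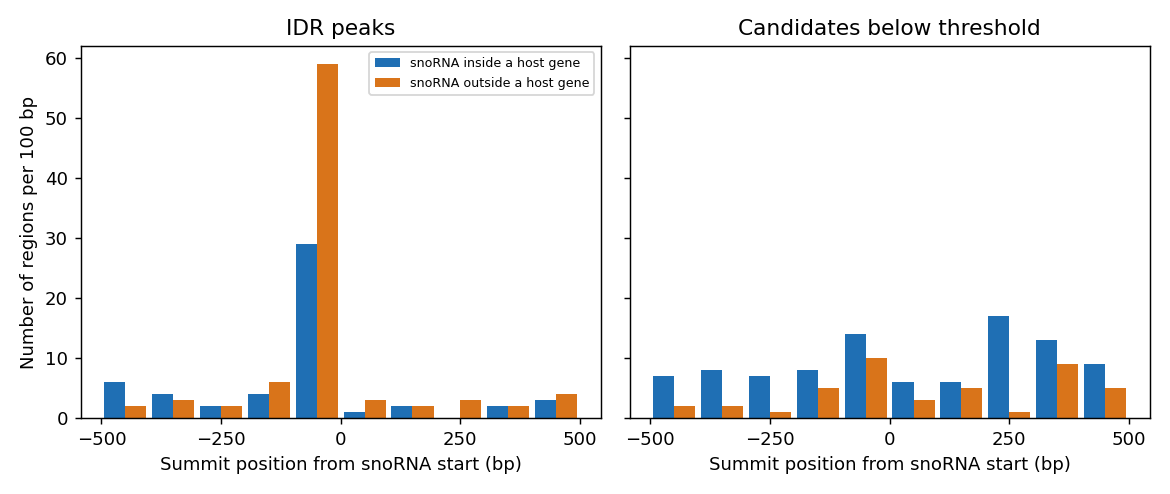
Bars count regions per 100 bp of distance from the snoRNA start (bp), for IDR peaks in the left panel and candidates below the threshold in the right panel. The bin just upstream of the start holds 29 hosted peaks (blue) and 59 peaks outside a host (orange), and no other bin of peaks holds more than 6 of either.

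Signal at these peaks was above the level of the list as a whole, as a description with no test. The median pooled signal was 336 at the 139 peaks (quartiles 169 and 511) and 174 over all 5560 peaks. The 24440 candidates below the threshold had a median of 34.7, and the 138 near snoRNA starts had 34.8. Quintile 1 of the IDR list by signal, its strongest peaks, held 63 of the 139 peaks (45.3%) and 51 of the 88 close peaks (57.95%). Close peaks had a median of 383, with 416 at hosted genes and 378 at genes outside a host. Peaks elsewhere within 500 bp had a median of 203. The width of a region carried little information below the threshold, where all 138 regions were 216 bp wide.

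The 10 strongest peaks at hosted snoRNA genes fell into 2 kinds of position. The highest signal, 1756, was at III:5679019-5679228, 252 bp before F54E7.10, a snoRNA in an intron of the ribosomal protein gene rps-12. The replicates there gave 888 and 873, or 881 ± 11.0 (SD, n = 2), and the summit was 172 bp upstream of the nearest rps-12 start and 121 bp upstream of a start of ska-3. F39B2.14 overlaps an exon of tmem-107, a ciliary transition zone gene, and had 1428 with the summit 120 bp before the snoRNA and 59 bp before tmem-107. Y24D9A.9, in rpl-7A, had 1099 with the summit 352 bp before the snoRNA and 70 bp before the rpl-7A start. K07C5.11, in an intron of nol-56, which itself encodes a core protein of box C/D particles, had 871 with the summit 380 bp before the snoRNA and 238 bp before nol-56. At these 4 the summit was nearer to a protein-coding start than to the snoRNA start.

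At the other 6 of the 10, the summit lay 32 to 58 bp before the snoRNA and farther from any protein-coding start. C08D8.3, in C08D8.1, had 1054 at V:8348959-8349156, with replicates of 511 and 560. ZK994.7, in pxn-1, had 1050, with replicates of 499 and 570, and its summit was 5658 bp downstream of the pxn-1 start. Y37E3.20, in pcyt-2.1, had 936 and replicates of 474 and 476. C16D9.11, in rol-3, had 838 with replicates of 468 and 373, and lay 9382 bp from the rol-3 start. W04D2.7, in the innexin gene inx-11, had 722 with replicates of 350 and 377. Y38F2AR.14, in Y38F2AR.12, had 714 with replicates of 373 and 351. The summit lay inside the host's annotated span at 6 of these 6, and at Y37E3.20 it lay 393 bp upstream of the nearest of several pcyt-2.1 transcript starts.

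Over all 53 hosted peaks, the nearest protein-coding start was a median of 1359 bp from the summit of the 29 close peaks and 262.5 bp from the summit of the other 24. A protein-coding start was nearer than the snoRNA start for 15 of 53 hosted peaks (28.3%) and for 5 of 86 peaks outside a host (5.81%). Ribosomal protein genes of the rpl and rps series hosted 6 of the 24 hosted peaks that were not close and 0 of the 29 close ones, where a count of 0 allows up to 11.9% (upper bound of the exact interval). The 6 hosts were rps-12, rpl-7A, rpl-24.1 (544), rpl-4 (323), rpl-26 (220) and rps-4 (114), each named with the pooled signal where it was not given above. The snoRNA genes in rpl-2, rpl-6, rpl-7, rpl-15, rps-13, rps-23 and rps-29 had no IDR peak within 500 bp of the start. The share of such hosts among all hosted snoRNA genes was not counted, so no preference for or against them can be read from these counts. A further host, ubl-1, which encodes a ubiquitin-like protein fused to a ribosomal protein, had 524 with the summit 203 bp before its start. Hosts of close peaks were of other kinds, such as mix-1, a condensin subunit gene (M106.6, 669), fars-1, a phenylalanyl-tRNA synthetase gene (T08B2.13, 545), and unc-41, a synaptic vesicle gene (C27H6.5, 314). The hosts named in this paragraph were picked after their values were seen.

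**Figure D3:**
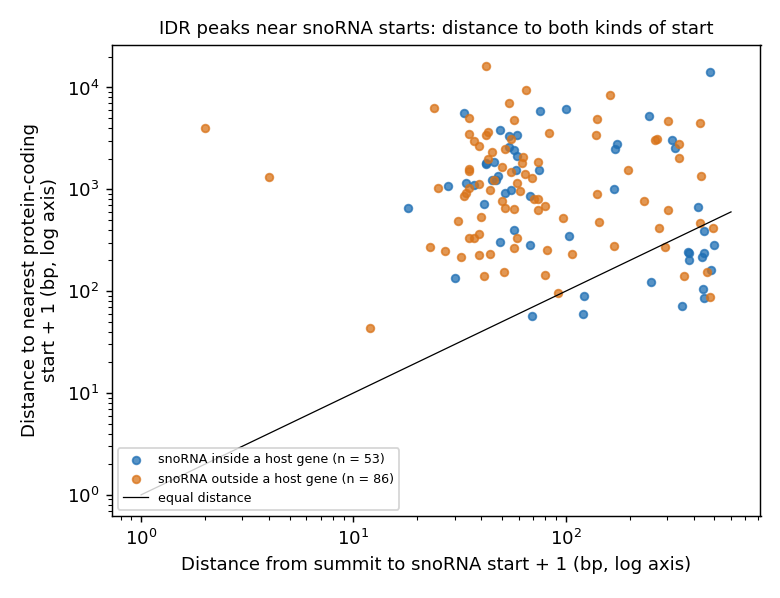
Each point is 1 of the 139 IDR peaks, with the distance from summit to snoRNA start on the horizontal axis and to the nearest protein-coding start on the vertical axis (both bp + 1, log axes). Blue points are hosted snoRNA genes and orange points those outside a host. Points under the line of equal distance are nearer to the protein-coding start, 15 of the blue and 5 of the orange points.

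Outside hosts, 9 of the 10 strongest peaks were close peaks. F59C6.15 had the highest signal, 1511, with replicates of 800 and 718 (759 ± 58.4, SD, n = 2) and the summit 73 bp before the start. Y53F4B.47 had 1086, with replicates of 561 and 538. C16D9.10 had 816 (435 and 396), Y67A10A.14 had 778 (409 and 379) and F25H2.15 had 763 (389 and 359), with summits 44, 70 and 58 bp upstream. C16D9.10 had its peak at V:8247904-8248110. The exception in position was K07C10.2, with 712 at II:11167243-11167439, where the summit was 139 bp downstream of the start and the replicates gave 399 and 333. Y74C9A.6 (681), C18A3.12 (667), T26A8.6 (665) and F09G2.14 (644) completed the 10, with summits 23 to 81 bp upstream. The upstream windows of F59C6.15, F25H2.15, Y67A10A.14 and Y37E3.20 each share a run of at least 20 bases with the window of another snoRNA gene, as do 21 of the 346 windows in all, 7 of them with a close peak. Neighbouring genes whose windows overlap on the genome, such as C51F7.3 and C51F7.4, are counted among the 21. How reads were placed in stretches shared between separate sites is not stated in the labels or file headers.

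Replicates gave similar values at most of these peaks. A region of both replicates covered the summit of 134 of the 139 peaks and of 34 of the 138 candidates below the threshold. The IDR list is itself set from the replicates, so this contrast follows from the rule and is no independent support. At 128 of the 139 the region ranked among the 5560 strongest of each replicate. The median coefficient of variation between replicates was 9.47% at the 134 peaks and 15.6% over the 5282 IDR peaks matched in both. That comparison was not matched for signal, and the peaks at snoRNA starts had a higher median (336) than the list (174). The ratio of replicate 2 to replicate 1 had a median of 0.915, beside 0.895 over all peaks. The replicate signals are on a lower scale than the pooled signal, and at the peaks named above the 2 replicate values add up to about the pooled value. The 5 peaks without a match in both were W08G11.6 (511), C41C4.11 (418), W03C9.9 (385), W01H2.11 (215) and R11A5.8 (83.8).

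**Figure D4:**
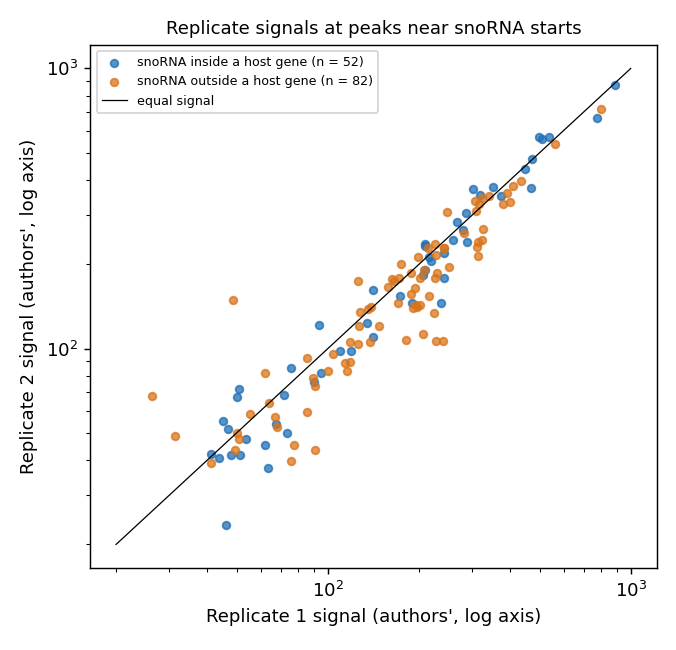
Each point is an IDR peak near a snoRNA start matched in both replicates, 52 at hosted genes (blue) and 82 outside a host (orange), with the authors' signal in replicate 1 on the horizontal and in replicate 2 on the vertical log axis. Most points follow the line of equal signal, and those farthest from it are C26C6.13, C04F12.17 and ZK20.9.

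The 3 largest relative differences were at C26C6.13, with 48.6 in replicate 1 and 149 in replicate 2, C04F12.17, with 26.2 and 67.6, and ZK20.9, with 240 and 107. The first 2 were higher in replicate 2 and ZK20.9 was higher in replicate 1. All 3 snoRNA genes lie outside a host, and their pooled signals of 204, 107 and 365 keep them in the IDR list. Their replicate spreads of 71.2, 29.3 and 94.2 (SD, n = 2) compare with 11.0 at F54E7.10.

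Of the snoRNA genes, 7 had more than 1 peak, with 2 each. They were smy-2 (in C33A12.3), R166.7 (in mnk-1, a kinase gene), C04A2.16 (in egl-27), W01H2.11, T10B9.11, C26C6.13 and K11D9.10. Genes were counted by their annotated biotype, and whether the RNA of each, such as smy-2, is a guide snoRNA was not checked. At smy-2 a close peak of 416 (replicates 219 and 206) stood beside one of 87.8 (62.2 and 45.2) that lay 418 bp upstream of the snoRNA and 45 bp from an annotated snRNA start. At T10B9.11 the close peak had 334 (165 and 174) and the downstream one 205 (114 and 88.5). At C04A2.16 neither peak was close, with 164 (89.9 and 75.9) and 151 (71.5 and 68.1). The close peak was the stronger at smy-2, R166.7 and T10B9.11 and the weaker at W01H2.11 and K11D9.10.

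Starts of tRNA, snRNA and protein-coding genes were also sought near the summits. A tRNA start lay within 500 bp of 1 of the 139 summits and an snRNA start within 500 bp of 2. A protein-coding transcript start lay within 500 bp of 47 of 139 peaks (33.8%) and of 47 of 138 candidates below the threshold (34.1%). Without the regions that have such a start within 500 bp, 183 regions remained, of which 92 were peaks (50.3%). Of those 92 peaks 67 were close (72.8%).

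The same distance rule gave high shares of peaks at other short noncoding genes. At tRNA gene starts 277 of 448 candidates were IDR peaks (61.8%, 57.2 to 66.3%), at snRNA gene starts 34 of 69 (49.3%, 37.0 to 61.6%) and at protein-coding gene starts 2268 of 7384 (30.7%, 29.7 to 31.8%). The median summit position was 49 bp before the start at snoRNA genes, 13 bp before it at tRNA genes, 48 bp before it at snRNA genes and 144 bp before it at protein-coding genes. Starts are as annotated, and how closely they mark the start of transcription in each class was not checked. Close peaks were 63.3% of the peaks at snoRNA genes, 65.3% at tRNA genes, 85.3% at snRNA genes and 21.6% at protein-coding genes. The median signal was 336 at snoRNA genes, 205 at tRNA genes, 240 at snRNA genes and 212 at protein-coding genes. The differences between classes were not tested, and a high share at snoRNA genes is shared with the tRNA and snRNA classes.

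The word pairs of the windows printed above were sought on the gene's strand in the 150 bases before every snoRNA start. The pairs were chosen after the windows under strong peaks were seen, so their shares at close peaks are descriptions and no independent support. The snRNA-type pair was in 29 of 346 windows (8.38%), and 19 of those 29 genes had a close peak (65.5%, 45.7 to 82.1%). Those 19 include smy-2 and smy-3, which were counted as snoRNA genes by annotated biotype alone. The tRNA-type pair was in 22 windows (6.36%), and 18 of those 22 genes had a close peak (81.8%, 59.7 to 94.8%). No window held both pairs. Of the 295 genes with neither pair, 52 had a close peak (17.6%, 13.5 to 22.5%). Before protein-coding genes the snRNA-type pair was found in 0.0551% and the tRNA-type pair in 0.406% of 19973 windows. Before snRNA genes the snRNA-type pair was in 21 of 129 windows (16.3%).

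Either pair stood before 37 of the 89 snoRNA genes with a close peak (41.6%, 31.2 to 52.5%) and before 14 of the 257 without one (5.45%, 3.01 to 8.97%). The pairs occurred in both host classes. Among hosted genes, a close peak was found at 8 of 10 with the snRNA-type pair, 7 of 10 with the tRNA-type pair and 15 of 163 with neither. Among genes outside a host these counts were 11 of 19, 11 of 12 and 37 of 132. Of the 123 snoRNA genes with no candidate within 500 bp, 8 held either pair (6.504%). The other 52 of the 89 genes with a close peak had neither pair.

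**Figure D5:**
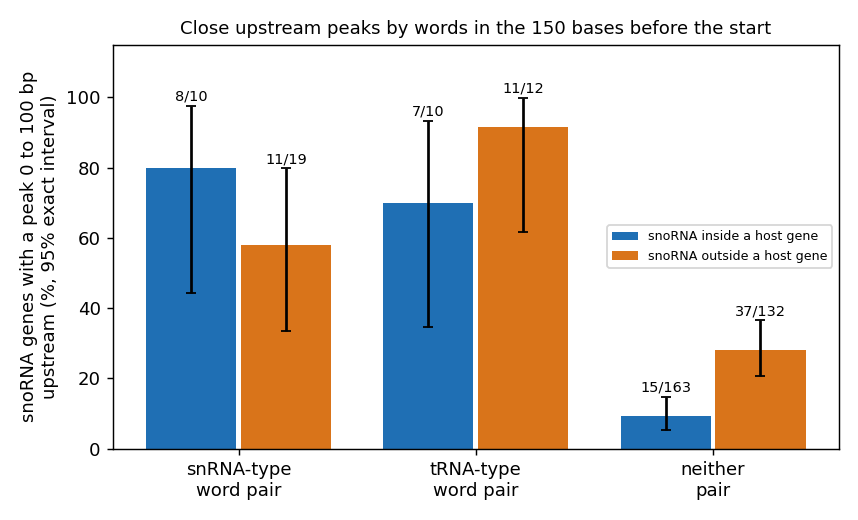
Bars give the percent of snoRNA genes with an IDR peak 0 to 100 bp upstream, by word pair in the 150 bases before the start, for hosted genes (blue) and genes outside a host (orange). Error bars are exact 95% intervals and the numbers are genes with a close peak over all genes of the class. Genes with either pair reach 57.9 to 91.7%, and genes with neither pair 9.20 and 28.0%.

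The summits of close peaks lay at similar distances with either pair or neither, and the median signal was highest with the snRNA-type pair. At the 19 close peaks with the snRNA-type pair, the words began a median of 62 and 47 bases before the start, and the summit lay a median of 48 bp before it. At the 18 with the tRNA-type pair, the words began a median of 59.5 and 15 bases before the start, and the summit lay a median of 50.5 bp before it. At the 51 with neither pair the summit lay a median of 44 bp before the start. The median signal was 722 (quartiles 441 and 887) with the snRNA-type pair, 339 (302 and 441) with the tRNA-type pair and 365 (214 and 454) with neither. The lowest signal with the snRNA-type pair was 272 and the lowest with neither was 75.4, and the ranges overlapped. The pairs were chosen after windows under strong peaks were seen, so a higher signal with a pair can follow from that choice. These differences were not tested.

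Short snoRNA genes had close peaks most often. Of genes up to 80 bases long, 39 of 56 had one (69.6%, 55.9 to 81.2%), against 11 of 75 genes of 81 to 120 bases (14.7%, 7.56 to 24.7%) and 39 of 215 longer genes (18.1%, 13.2 to 24.0%). Among the short genes, the counts were 13 of 25 hosted and 26 of 31 outside a host. The length classes were chosen after values were seen, and the annotation used does not give the box class of each snoRNA.

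RUNX words were not common at these summits. TGTGGT or TGCGGT, sought on both strands within 50 bp of the summit, occurred at 20 of 139 peaks (14.4%, 9.02 to 21.3%) and at 561 of 5560 peaks in all (10.1%, 9.31 to 10.9%). Candidates below the threshold held a RUNX word at 11 of 138 snoRNA starts (7.97%) and at 7.06% overall. The interval at snoRNA starts includes the share of the whole list. Divided by host, 11 of 53 peaks at hosted genes held a word (20.8%, 10.8 to 34.1%), an interval that lies above the 10.1% of the whole list, and 9 of 86 outside a host did (10.5%, 4.90 to 18.9%). The difference between host classes was not tested. Among the peaks with a word were Y67A10A.14 (778) and C46C2.8 (629) outside hosts and H06I04.9 in ubl-1 (524), named after their values were seen. None of the 10 strongest hosted peaks had a RUNX word in this window. With TGTGGT alone the share was 7.91%, and the share of the whole list was not counted for this word alone. The absence of these letters says nothing about the factor.

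Genes for the proteins of snoRNA particles also had peaks near their starts, as background to the RNA genes. An IDR peak lay within 500 bp of a transcript start at 9 of the 10 genes listed for these proteins, beside 14.8% of all protein-coding genes. For the box C/D core the pooled signals were 1039 at fib-1, the fibrillarin gene (replicates 548 and 489), 871 at nol-56 (447 and 437), 704 at nol-58 (378 and 331) and 222 at snu-13 (111 and 108). For the box H/ACA core they were 160 at K01G5.5, named dkc-1 in the annotation and encoding dyskerin (91.3 and 69.5), 775 at Y48A6B.3 (422 and 360) and 81.1 at Y66H1A.4, named garr-1 (50.1 and 34.3). The gene nola-3 had no candidate region. The assembly helicase genes ruvb-1 and ruvb-2 had 150 (82.0 and 63.1) and 637 (362 and 280). The nol-56 peak is the same region as that of its intronic snoRNA K07C5.11.

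Both limits of the rule cut through continuous values. The 3 weakest peaks, at JC8.15 (80.3), Y39G10AR.24 (75.4) and F32B5.17 (72.8), stood beside the 3 strongest candidates below the threshold, at C41C4.16 (69.3), F26D10.24 (66.5) and C56G2.20 (65.8). Just inside 500 bp were regions at F56C9.12 (500 bp, signal 56.1), Y37E3.21 (498 bp, 242) and F26D10.24 (495 bp, 36.6). Just outside were regions at T23G11.12 (502 bp, 30.4), R151.11 in rpl-6 (515 bp, 609) and Y53F4B.48 (517 bp, 27.7). Among these, R151.11 was a strong peak just outside the limit. The number of regions was 175 within 250 bp and 462 within 1000 bp.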

How the data were processed

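RNT-1 ChIP-seq candidate regions from whole L1 larvae were taken as deposited. The authors' files, named as peaks and background and as optimal IDR thresholded peaks, gave each region's signal (scale not stated) and the deposited −log10 q value, which was copied and not used to choose regions. The 4 lists on ce11 were used, and those on ce10 were not. Not given in the sources used here were the aligner, peak caller, IDR settings and read depth, and a control named in the labels was not analysed here. Summits were set against starts of snoRNA genes in Ensembl release 115 (WBcel235, the sequence of ce11), with chromosome lengths checked, coordinates 1-based and sequences from RefSeq WBcel235. A replicate matched a peak when one of its regions covered the summit. The scripts were run in Python 3.11.15 with pandas 2.3.3 and scipy 1.17.1 and tested on simulated data.

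With 1 group of 2 replicates no test was made: shares have exact 95% intervals, beside the same over all candidates. Members, word pairs and lists were chosen with earlier results of these data known. The genes named by rule were the 10 strongest peaks inside and outside hosts, the weakest peaks, the strongest candidates below the threshold, the regions at the distance limit, the largest replicate differences, genes with more than 1 peak and 10 particle proteins. Alternatives were other distances, host definitions, single replicates, the stronger 2780 peaks, merged summits, regions or a chromosome left out, other RUNX windows and other matching rules.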

Additional observations from a re-analysis of the deposited data

How the results depend on the processing

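Of 61 alternative values 39 stayed within the interval, the replicate spread or the factor of 1.5 of the reported value, and 22 moved. Single shares and medians have no direction, so only staying or moving was recorded. Merging summits within 200 bp left the 277 regions and their shares unchanged, so the values counted as staying there add no check. With the stronger 2780 peaks, the shares of regions and genes could only fall and the median signal could only rise. The number of regions and the share of genes could only fall within 250 bp and rise within 1000 bp. The direction of these moves was therefore fixed in advance. Within 250 bp there were 175 regions, with 61.7% in the IDR list, 46.25% at hosted genes and 74.7% outside hosts, 31.5% of snoRNA genes with a peak and 92.6% of peaks upstream. Within 1000 bp there were 462 regions, with 41.3% in the list, 53.3% outside hosts and 50.6% of genes with a peak. With the stronger 2780 peaks, the shares were 37.5% of regions, 24.3% at hosted genes, 52.7% outside hosts and 30.3% of genes, the median signal was 407, and 90.4% of peaks were upstream and 73.1% close. Without regions near a protein-coding start there were 183 regions and 72.8% of peaks were close. With TGTGGT alone, 7.91% of peaks held a RUNX word. With 1 replicate left out, using the other's 5560 strongest regions, there were 263 to 264 regions, with 52.1 to 53.0% in the list, 38.03 to 39.8% at hosted genes and 66.4 to 68.6% outside. A peak was at 38.2 to 39.3% of genes, 82.1 to 84.7% of peaks were upstream, 62.9 to 65.0% were close and 13.1 to 15.7% held a RUNX word. The median signal was 147 to 191, because replicate lists are on a lower scale. No paired analysis was possible because there is 1 group. The alternatives for close peaks were added after the data were seen. No control library was analysed here and read depth is unknown, so background signal at these sites cannot be told apart from binding.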
